A study of Mus musculus with 6 samples.

Results

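The plasminogen activator system was followed in mammary tumors of NeuT/ATTAC mice through 8 genes: the activators Plau and Plat, the receptor Plaur, the substrate Plg, and the serpins Serpine2, Serpinb2, Serpinb5 and Serpinb6b. The genes were taken by name from the annotation of the 54532 Ensembl gene IDs in each RNAseq profile, and each symbol matched 1 ID. Tumors of 3 IgG-treated and 3 anti-PD-1-treated mice were compared, with each library taken as 1 tumor of 1 mouse. All 6 mice carried the MMTV-NeuT transgene, an Erbb2 gene driven by the MMTV promoter in mammary epithelium, and the FAT-ATTAC transgene, which lets AP20187 ablate adipose tissue. FAT-ATTAC came from a C57BL/6 line and was bred into FVB before the cross. Fibrosis was induced in all of them from 6 weeks of age with 0.4 mg/kg AP20187. By the labels the groups differed in the antibody alone, either anti-PD-1 or control IgG, dosed at 100 μg 2 times per week starting at 8 weeks of age. The study's text speaks of pooled RNA per group whereas the labels list single samples, and the p-values given here measure only the spread between these libraries.

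Plasminogen is an inactive protease precursor, made mainly by the liver and carried in plasma. Urokinase (Plau) and tissue plasminogen activator (Plat) cut it to plasmin, which dissolves fibrin, degrades matrix and activates other proteases and growth factors. The urokinase receptor Plaur holds the activator on the cell surface, and serpins such as Serpine2 and Serpinb2 trap the activators or plasmin. Serpinb5 is not known as a protease inhibitor, and no target is given here for Serpinb6b. In breast tumors the system is known for its part in invasion and tissue remodeling, with stromal cells as a common source of its components.

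The promoters of the members on which the comparison turns are shown here so that their sequences can be set beside their levels. RefSeq promoter sequences (GRCm38.p6) were at hand for 5 of the 8 members. The 250 bases before the annotated start are given 5′ to 3′ for Plaur, the receptor (chr7:24462233-24462482, + strand), for Serpinb5 (chr1:106860925-106861174, + strand) and for Serpinb6b (chr13:32965011-32965260, + strand). The latter pair are the members whose groups did not overlap. Capitals mark the letters TGANTCA, the core bound by AP-1, which reads the same on both strands.
Plaur: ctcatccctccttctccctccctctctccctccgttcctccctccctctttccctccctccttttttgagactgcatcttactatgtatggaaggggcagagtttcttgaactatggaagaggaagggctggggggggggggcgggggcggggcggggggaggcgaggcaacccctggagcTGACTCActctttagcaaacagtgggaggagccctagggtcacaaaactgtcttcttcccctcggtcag
Serpinb5: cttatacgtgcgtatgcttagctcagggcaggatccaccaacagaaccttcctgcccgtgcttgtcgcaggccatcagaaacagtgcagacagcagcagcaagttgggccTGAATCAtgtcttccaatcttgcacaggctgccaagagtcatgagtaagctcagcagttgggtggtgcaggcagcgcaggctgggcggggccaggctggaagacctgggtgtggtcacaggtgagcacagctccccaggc
Serpinb6b: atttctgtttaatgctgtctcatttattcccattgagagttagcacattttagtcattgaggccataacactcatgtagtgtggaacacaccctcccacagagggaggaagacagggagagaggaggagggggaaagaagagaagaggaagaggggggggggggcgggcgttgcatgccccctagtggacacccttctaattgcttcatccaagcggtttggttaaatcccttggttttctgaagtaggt

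The AP-1 letters begin 69 bases before the start of Plaur and 140 bases before that of Serpinb5, and the Serpinb6b window holds none. They also begin 94 bases before the first start of Serpinb2, and the Serpine2 window holds none. Of all 32851 promoter windows of this length, 6.75% hold them. The GC box letters GGGCGG, searched on both strands, stand 3 times in the Plaur window 6 times in that of Serpine2, 1 time each in those of Serpinb5 and Serpinb6b and not in that before the first start of Serpinb2, and are found in 32.7% of all windows. Serpinb2 was the only member of the 5 with the TATA box letters TATAAA, 29 bases before its first start, which 12.4% of all windows hold on either strand. The Serpine2 window was 78.8% G and C, against a median of 52.4% over all windows. These matches describe the letters of the window and not a bound site.

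Levels are given as FPKM, fragments scaled by exon length and library size, as the authors deposited them. Values of a gene are listed for replicates 1, 2 and 3 in that order. The FPKM values could be turned back into whole reads in all 6 tumors for every member, with 21075641 to 23852764 reads recovered per tumor. Genes with a mean of at least 0.5 FPKM were compared between the groups by limma on log2(FPKM + 1), two-sided, with Benjamini-Hochberg adjustment over 15069 genes. This filter kept 6 of the 8 members and left out Plg and Serpinb2. The tumors carried strong luminal epithelial expression, with all 7 luminal markers above 1 FPKM in every tumor and Epcam between 689.9 and 1149.9 FPKM. T cell markers were low, with 9 markers summing to 1.67 to 5.37 FPKM per tumor, and Pdcd1, the gene of PD-1, lay between 0.0706 and 1.00 FPKM. Skeletal muscle markers ranged from 0.675 to 150 FPKM in sum and were high in IgG replicate 2 and in anti-PD-1 replicates 1 and 2. In bulk tumor RNA, fewer cells of a type and less RNA per cell cannot be told apart.

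The serpins Serpine2 and Serpinb5 were the most abundant members, Plau lay in the middle and Plg at the bottom. Over the 6 tumors the mean level per exon length was 28.9 FPKM for Serpine2, 24.8 FPKM for Serpinb5, 8.53 FPKM for Plau, 3.13 FPKM for Plaur, 1.80 FPKM for Serpinb6b, 1.55 FPKM for Plat, 0.121 FPKM for Serpinb2 and 0.0597 FPKM for Plg. Serpinb5 exceeded Plau in 6 of 6 tumors, and Plau exceeded Plaur in 6 of 6. Serpine2 exceeded Serpinb5 in 4 tumors, all but IgG replicates 2 and 3. The order of Plaur, Serpinb6b and Plat was not fixed: Plaur exceeded Serpinb6b in 4 tumors, and Serpinb6b exceeded Plat in 2, the same IgG replicates 2 and 3. Serpinb2 exceeded Plg in 3 tumors.

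**Figure D1:**
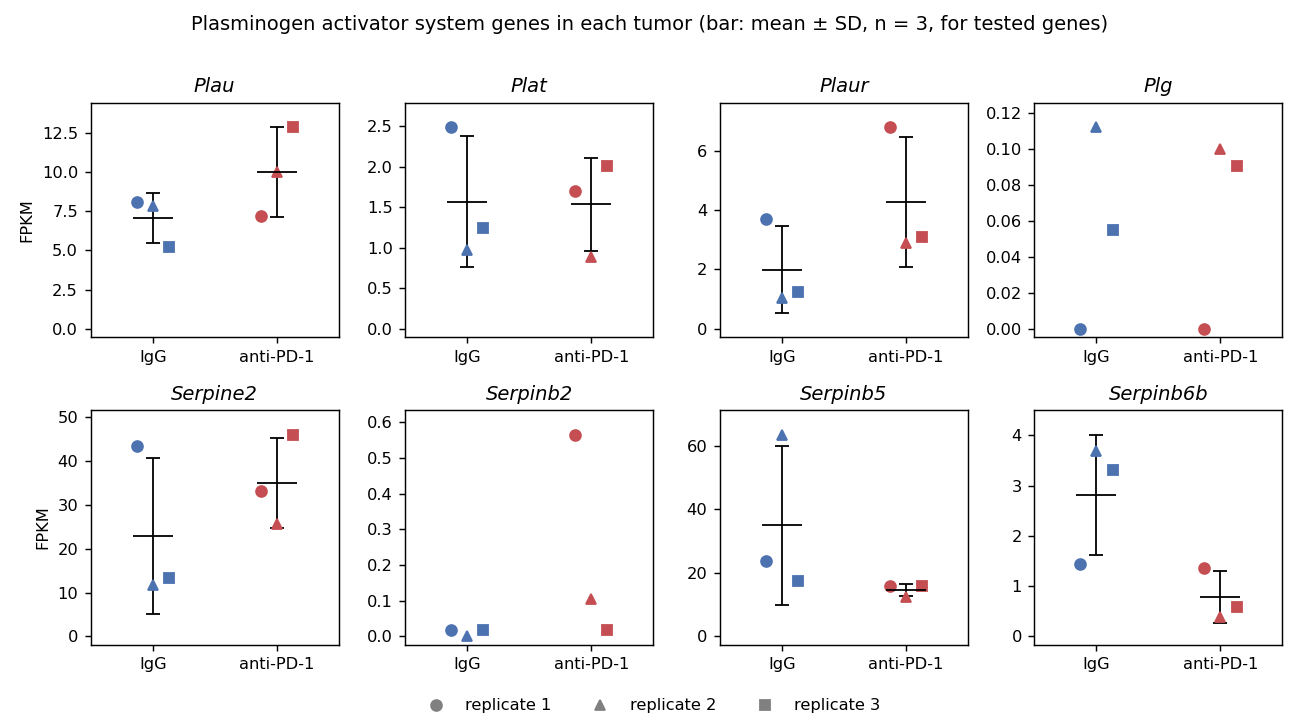
FPKM (y axes, linear) of the 8 members in each IgG and anti-PD-1 tumor, with bars for mean ± SD (n = 3) of the 6 tested genes. The 3 anti-PD-1 tumors sit below all IgG tumors for Serpinb5 and Serpinb6b, while the groups overlap in the other panels.

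Between the groups, Serpinb6b and Serpinb5 were each lower in FPKM in every anti-PD-1 tumor than in any IgG tumor, both by a narrow gap. Plaur and Serpine2 had higher means in anti-PD-1 tumors, but IgG replicate 1 lay among the anti-PD-1 tumors in both. The mean of Plau was slightly higher, and that of Plat nearly equal. No member had an adjusted p under 0.05 in limma, as was true of all 15069 genes (0.0%), and 1 of the 6 tested members, Serpinb6b, had an unadjusted p under 0.05. Over all tested genes 12.3% had such a p in either direction and 6.05% in the lower direction. Groups that did not overlap were found in 2 of the 6 tested members, both lower, against 18.1% of all tested genes in either direction, 9.1% in the higher and 8.99% in the lower one. The median log2 fold change was 0.22 over the 6 tested members and 0.01 over all tested genes, and 4 of the 6 lay above 0, as did 50.8% of all tested genes.

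Plau (ENSMUSG00000021822, chromosome 14 from 20836660 to 20843385) encodes urokinase. Its level was 8.10, 7.82 and 5.24 FPKM under IgG and 7.16, 9.98 and 12.9 FPKM under anti-PD-1, from 303 to 723 reads per tumor. The highest values were those of anti-PD-1 replicates 2 and 3, while anti-PD-1 replicate 1 lay below 2 IgG tumors. The means were 7.05 ± 1.57 (SD, n = 3) FPKM in IgG and 10.0 ± 2.85 (SD, n = 3) FPKM in anti-PD-1 tumors. On the log2(FPKM + 1) scale the difference was 0.44 (standard error 0.25, 95% interval -0.14 to 1.02, adjusted p = 0.498 from limma; by two-sided permutation, exact p = 0.3). Here and below, 3 tumors against 3 cannot give an exact p under 0.1. Without anti-PD-1 replicate 1 the difference was 0.64 (limma, unadjusted p = 0.0379, adjusted p = 0.439), and leaving out anti-PD-1 replicate 3 gave 0.26.

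Plat (ENSMUSG00000031538, chromosome 8 from 22757727 to 22782844) encodes tissue plasminogen activator, which endothelium is known to release. Plat had 2.49, 0.968 and 1.25 FPKM under IgG and 1.70, 0.892 and 2.01 FPKM under anti-PD-1, from 135 to 342 reads. The groups overlapped throughout, with the highest value in an IgG tumor and the lowest in an anti-PD-1 tumor. The group means were 1.57 ± 0.810 (SD, n = 3) and 1.53 ± 0.578 (SD, n = 3) FPKM, a log2 difference of 0.00 (standard error 0.29, 95% interval -0.68 to 0.68, adjusted p = 0.999 from limma). Of the activators, Plau was the more abundant per exon length in each tumor, at 3.25 to 8.07 times Plat in IgG and 4.21 to 11.2 times in anti-PD-1 tumors. The 8 endothelial markers summed to 21.1 to 28.8 FPKM in IgG and 14.7 to 29.5 FPKM in anti-PD-1 tumors, with none at 0 throughout, and their part in the Plat values was not tested.

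Plaur (ENSMUSG00000046223, chromosome 7 from 24462484 to 24475968) encodes the urokinase receptor, a protein of LY6/uPAR domains held in the membrane by a lipid anchor. Its level was 3.70, 1.05 and 1.24 FPKM under IgG and 6.79, 2.90 and 3.10 FPKM under anti-PD-1, from 66 to 455 reads. IgG replicate 1 lay above anti-PD-1 replicates 2 and 3, and IgG replicates 2 and 3 lay below all others. The means were 2.0 ± 1.48 (SD, n = 3) FPKM in IgG and 4.27 ± 2.19 (SD, n = 3) FPKM in anti-PD-1 tumors, or 2.14 times as high in the latter. The log2(FPKM + 1) difference was 0.85 (standard error 0.40, 95% interval -0.09 to 1.78, adjusted p = 0.435 from limma; by permutation, exact p = 0.3). Without IgG replicate 1 it was 1.22 (limma, unadjusted p = 0.0108, adjusted p = 0.153), and leaving out anti-PD-1 replicate 1 gave 0.52. Plau exceeded Plaur by 2.19 to 7.44 times in IgG and by 1.05 to 4.14 times in anti-PD-1 tumors, with the lowest ratio in anti-PD-1 replicate 1 (log2 ratio lower by 0.73 in anti-PD-1, exact permutation test, p = 0.4, adjusted p = 0.5 over 5 ratios).

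Macrophages are a known source of Plaur, and the 10 macrophage markers summed to 222 to 389 FPKM in IgG and 287 to 464 FPKM in anti-PD-1 tumors. Of these markers 9 had a log2 difference above 0 and none was at 0 throughout. Among the 10, Cd68 alone had an unadjusted p under 0.05, while Adgre1, Csf1r and Cd163 had log2 differences of 0.01, 0.11 and -0.05. Cd68 was at 13.8 to 18.3 FPKM in IgG and 22.1 to 30.7 FPKM in anti-PD-1 tumors, a log2 difference of 0.76 (standard error 0.19, unadjusted p = 0.00438, adjusted p = 0.344 from limma). The 10 neutrophil markers summed to 2.97 to 12.8 FPKM in IgG and 6.29 to 26.0 FPKM in anti-PD-1 tumors. The 3 tested ones, S100a8, S100a9 and Csf3r, had log2 differences of 1.09, 0.53 and 0.13 with overlapping groups. The other neutrophil markers did not reach the filter of 0.5 FPKM and were not tested. Among them, Ngp and Ly6g were at 0 in all IgG tumors and at most 0.306 FPKM in any anti-PD-1 tumor. The part of either cell type in the Plaur values was not tested.

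Plg (ENSMUSG00000059481, chromosome 17 from 12378608 to 12419385) encodes plasminogen, and little of its RNA was found. The reads were 0, 10 and 5 under IgG and 0, 9 and 8 under anti-PD-1, or at most 0.112 FPKM. A count of 0 allows up to 3 reads, which is 0.0367 FPKM in IgG replicate 1 and 0.0316 FPKM in anti-PD-1 replicate 1, for counting error only. No difference between the groups was detectable at this depth, with 15 reads under IgG and 17 under anti-PD-1. The liver markers were highest in IgG replicate 2, where the 9 genes summed to 11.5 FPKM with Alb at 6.12 FPKM, and at most 3.83 FPKM elsewhere. Their part in the Plg reads was not tested. Exons of Plg overlap those of Slc22a3 on the opposite strand, and whether the counting used strand is not given in the sources used here.

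Serpine2 (ENSMUSG00000026249, chromosome 1 from 79794197 to 79861180) encodes protease nexin-1, a secreted inhibitor of thrombin, plasmin and both activators. It had 43.5, 11.8 and 13.3 FPKM under IgG and 33.1, 25.7 and 46.1 FPKM under anti-PD-1. IgG replicate 1 ranked behind anti-PD-1 replicate 3 and ahead of the other 2 anti-PD-1 tumors, and the remaining IgG tumors were the lowest. The means were 22.9 ± 17.8 (SD, n = 3) FPKM in IgG and 35.0 ± 10.3 (SD, n = 3) FPKM in anti-PD-1 tumors, a log2 difference of 0.80 (standard error 0.48, 95% interval -0.32 to 1.93, adjusted p = 0.521 from limma; by permutation, exact p = 0.3). Without IgG replicate 1 the difference was 1.37 (limma, unadjusted p = 0.00178, adjusted p = 0.106), and without IgG replicate 2 it was 0.48. The summed FPKM of 10 fibroblast markers, led by collagen genes, was 301, 106 and 132 under IgG and 398, 114 and 251 under anti-PD-1, with 6 of 10 above 0 in log2 difference and none at 0 throughout. Among the IgG tumors, replicate 1 had the highest sum but not the highest Dcn, Pdgfra or Thy1. Anti-PD-1 replicate 2 held 25.7 FPKM of Serpine2 at a fibroblast sum close to that of IgG replicates 2 and 3, and the part of these cells in the Serpine2 values was not tested.

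Serpinf2, which encodes the plasmin inhibitor α2-antiplasmin made by the liver, was at most 0.213 FPKM in any tumor and was not tested.

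Serpinb2 (ENSMUSG00000062345, chromosome 1 from 107511423 to 107535478) encodes PAI-2, a urokinase inhibitor known from monocytes, placenta and keratinocytes. Its reads numbered 1, 0 and 1 under IgG and 34, 6 and 1 under anti-PD-1. The groups summed to 2 reads under IgG and 41 under anti-PD-1, 34 of them from anti-PD-1 replicate 1, the tumor with the highest Plaur. The remaining anti-PD-1 tumors had at most 0.105 FPKM, and anti-PD-1 replicate 3 overlapped the IgG tumors. No fold change of the FPKM itself is given for a gene with 0 or 1 read per IgG tumor. Serpinb2 shares exons with Serpinb10 on the same strand, and 10.4% of the 50-base words in its transcripts also stand in transcripts of Serpinb10, which was listed at 0 in all 6 tumors.

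Serpinb5 (ENSMUSG00000067006, chromosome 1 from 106861173 to 106883348) encodes maspin, a serpin of epithelial cells known as a tumor suppressor in the mammary gland and not as an inhibitor of proteases. Its level was 23.8, 63.5 and 17.5 FPKM under IgG and 15.8, 12.5 and 15.9 FPKM under anti-PD-1, from 832 to 4192 reads. The anti-PD-1 tumors lay close together and all under the IgG tumors, with IgG replicate 3 the nearest. The IgG mean was 34.9 ± 24.9 (SD, n = 3) FPKM and the anti-PD-1 mean 14.7 ± 1.94 (SD, n = 3) FPKM. The log2 difference was -0.98 (standard error 0.43, 95% interval -2.00 to 0.04, adjusted p = 0.419 from limma; by permutation, exact p = 0.1). IgG replicate 2 carried more than the other IgG tumors together, and without it the difference was -0.45 (limma, unadjusted p = 0.0793), whereas without IgG replicate 3 it was -1.35 (unadjusted p = 0.0155, adjusted p = 0.488). In the mammary gland maspin is known from myoepithelial cells. The 7 basal and myoepithelial markers summed to 23.6 to 29.6 FPKM in IgG and 17.3 to 43.8 FPKM in anti-PD-1 tumors, with none at 0 throughout. The largest single part of this sum was Acta2, the smooth muscle actin gene, at 10.3 to 37.0 FPKM and a log2 difference of 0.55, while the other 5 tested markers lay below 0. Krt5 and Krt14 were at most 2.99 FPKM in any tumor. Krt17, another basal keratin, was at 0.527 to 1.06 FPKM in IgG and 0.0271 to 0.378 FPKM in anti-PD-1 tumors (log2 difference -0.66, adjusted p = 0.370 from limma). Of the 7 luminal markers 4 lay above 0 in log2 difference (Krt8, Krt18, Epcam and Erbb2) and 3 below. The lower ones included Krt19, at 77.9 FPKM in IgG replicate 2 against 1.70 to 7.84 FPKM elsewhere (log2 difference -2.03, adjusted p = 0.404 from limma, without overlap). The luminal sum of IgG replicate 2 was 2566 FPKM, between those of the other IgG tumors. The part of these cells in the Serpinb5 values was not tested.

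Serpinb6b (ENSMUSG00000042842, chromosome 13 from 32965209 to 32979067) encodes an intracellular clade B serpin of the Serpinb6 family. It had 1.45, 3.68 and 3.31 FPKM under IgG and 1.36, 0.383 and 0.596 FPKM under anti-PD-1. The reads behind these values were 72, 200 and 183 under IgG and 79, 21 and 32 under anti-PD-1. The groups did not overlap in FPKM, but replicate 1 of either group met at nearly one level, and by raw reads IgG replicate 1 lay below anti-PD-1 replicate 1. The IgG mean of 2.81 ± 1.2 (SD, n = 3) FPKM was 3.60 times the anti-PD-1 mean of 0.781 ± 0.516 (SD, n = 3) FPKM. The log2(FPKM + 1) difference was -1.08 (standard error 0.32, 95% interval -1.84 to -0.32, unadjusted p = 0.0121, adjusted p = 0.347 from limma; by permutation, exact p = 0.1). Leaving out 1 tumor at a time, it stayed between -1.37 and -0.90, and its unadjusted p between 0.00276 and 0.0454. On the recovered reads, where nothing is added to the FPKM, limma's voom gave -1.93 (adjusted p = 0.327).

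**Figure D2:**
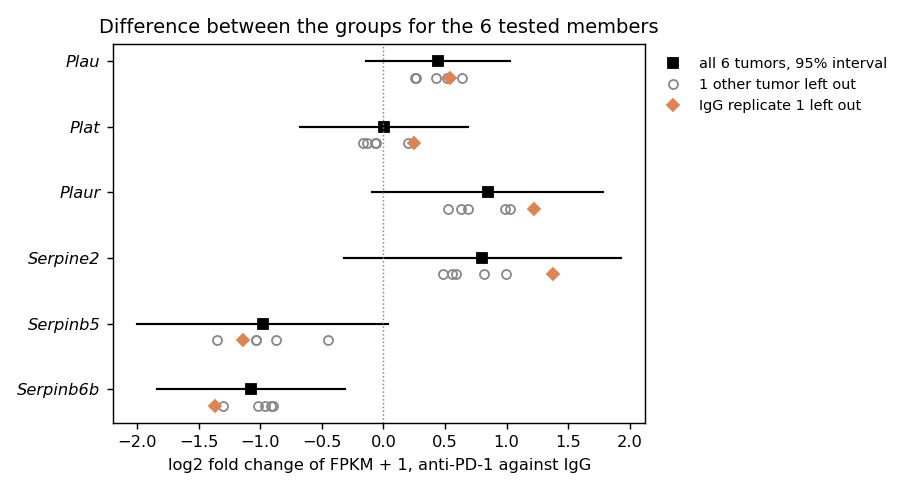
Difference between anti-PD-1 and IgG tumors in log2(FPKM + 1) (x axis) for the 6 tested members, as squares with 95% intervals from limma, circles for fits without 1 tumor and diamonds for the fit without IgG replicate 1. The interval of Serpinb6b, from -1.84 to -0.32, is the only one that leaves out 0, and leaving out IgG replicate 1 moves Plaur to 1.22 and Serpine2 to 1.37.

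Near relatives of Serpinb6b gave other values. Serpinb6a, on the same chromosome, had 27.3, 29.5 and 18.5 FPKM under IgG and 24.2, 27.0 and 18.8 FPKM under anti-PD-1, with overlapping groups and a log2 difference of -0.09 (standard error 0.23, adjusted p = 0.898 from limma). The ratio of Serpinb6b to Serpinb6a was 0.0530, 0.125 and 0.179 under IgG and 0.0564, 0.0142 and 0.0318 under anti-PD-1, and these ratios overlapped (exact permutation test, p = 0.2, adjusted p = 0.5 over 5 ratios). Of the 50-base words in Serpinb6b transcripts, 2.92% are found in other genes, mostly in Serpinb6c, which was at most 0.147 FPKM. Reads split between such copies could not be told apart. Among the 14 clade B serpins listed for this cluster, 4 were tested, 5 were at 0 in every tumor, and none of the 4 had an unadjusted p under 0.05 in limma. Serpinb9, an inhibitor of granzyme B, was lowest among the 4 in log2 difference, at -0.45 (standard error 0.21, adjusted p = 0.433 from limma).

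Seen by tumor, IgG replicate 1 stood apart from the other IgG tumors in Plaur, Serpine2 and Serpinb6b. Relative to the mean of the 6 tumors on the log2(FPKM + 1) scale, IgG replicate 1 was at 0.33 for Plaur, 0.74 for Serpine2 and -0.05 for Serpinb6b. IgG replicates 2 and 3 were at -0.86 and -0.74 for Plaur, at -1.05 and -0.90 for Serpine2 and at 0.89 and 0.77 for Serpinb6b. The anti-PD-1 tumors lay between 0.06 and 1.07 for Plaur, between 0.01 and 0.83 for Serpine2 and between -0.86 and -0.09 for Serpinb6b. IgG replicate 1 was therefore inside or near the range of the anti-PD-1 tumors in these 3 genes. It was not in Serpinb5, where it was at 0.17 between the other IgG tumors (1.55 and -0.25) and above the anti-PD-1 tumors (-0.71 to -0.38). For Plau it was at -0.02, close to IgG replicate 2 (-0.07) and within the range of the anti-PD-1 tumors (-0.17 to 0.59). In Plat it was at 0.48, above the other IgG tumors (-0.34 and -0.15) and above the anti-PD-1 tumors (-0.39 to 0.27). Leaving it out raised the number of members with an unadjusted p under 0.05 in limma from 1 to 3 of 6 (Plaur, Serpine2 and Serpinb6b), while over all tested genes the number went from 1848 to 2679. None of the 3 had an adjusted p under 0.05 in that fit.

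**Figure D3:**
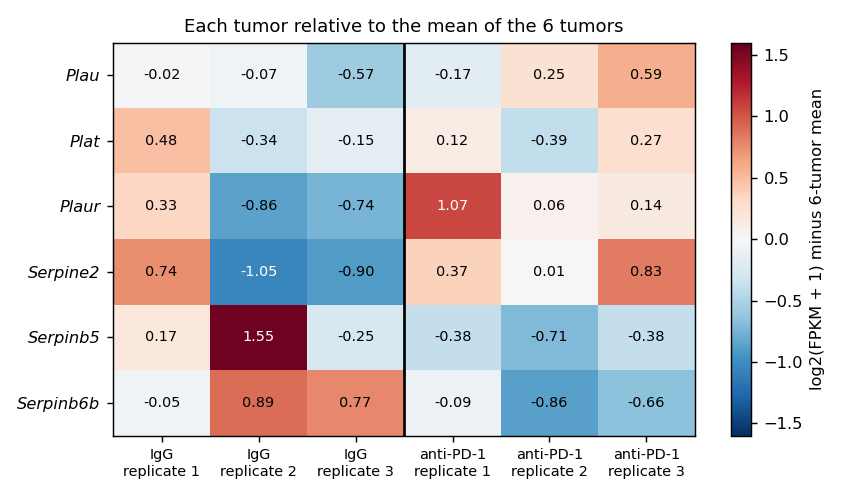
Color and printed value give log2(FPKM + 1) minus the mean of the 6 tumors for each tested member (rows) in each tumor (columns), IgG left of the line and anti-PD-1 right. IgG replicate 1 is above 0 for Plaur (0.33) and Serpine2 (0.74), as are all anti-PD-1 tumors, and IgG replicates 2 and 3 are below.

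Other genes of the system were taken from a list of 53 inhibitors, binding proteins, receptor partners, upstream proteases, substrates and coagulation genes, of which 40 were tested. Of these, 3 had an unadjusted p under 0.05 in the higher and 2 in the lower direction, where 6.22% and 6.05% of all tested genes did. None had an adjusted p under 0.05, and the median log2 difference was 0.06 against 0.01 over all tested genes.

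Among the upstream proteases, Tmprss4, a membrane serine protease, had 2.07, 1.13 and 0.696 FPKM under IgG and 3.20, 10.3 and 6.15 FPKM under anti-PD-1. Every anti-PD-1 tumor was above every IgG tumor (log2 difference 1.65, standard error 0.39, adjusted p = 0.344 from limma; by permutation, exact p = 0.1). St14 encodes matriptase, a membrane protease that can activate urokinase, and had 25, 57.2 and 42.1 FPKM under IgG and 30.5, 19.2 and 15.4 FPKM under anti-PD-1. Its groups overlapped through IgG replicate 1, with a log2 difference of -0.88 (standard error 0.35, adjusted p = 0.395 from limma). Both genes lie on chromosome 9, where the median log2 difference of 798 tested genes was -0.36 and 82.3% were below 0. The plasmin-binding gene Anxa2 is also on chromosome 9 and Eno1 on chromosome 4 (median -0.40 over 926 tested genes), with log2 differences of -0.17 and -0.25 and overlapping groups. Of the other tested list genes on chromosome 9, Mmp3, Pdgfd and Mmp13 had log2 differences of 0.92, -1.02 and -0.42. The part of these chromosomes in the values was not tested. Exons of Tmprss4, Anxa2, Pdgfc, Fgg and Serpinb6a overlap genes on the opposite strand, whose reads could not be told apart without strand. The genes of the 8 members lie on other chromosomes, whose medians ran from -0.02 to 0.08.

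Of the receptor partners, Lypd3, a relative of Plaur with LY6/uPAR domains, was 10.4 ± 5.30 (SD, n = 3) FPKM in IgG and 24.0 ± 5.42 (SD, n = 3) FPKM in anti-PD-1 tumors without overlap (log2 difference 1.22, standard error 0.35, adjusted p = 0.344 from limma). Egfr, which signals together with the urokinase receptor, was 10.9 ± 2.66 (SD, n = 3) FPKM in IgG and 6.07 ± 1.00 (SD, n = 3) FPKM in anti-PD-1 tumors, also without overlap (log2 difference -0.73, standard error 0.21, adjusted p = 0.344 from limma). Igf2r, a receptor that binds Plaur and plasminogen, did not overlap either, at 34.7 to 51.9 FPKM in IgG and 55.9 to 70.5 FPKM in anti-PD-1 tumors, but had an unadjusted p of 0.0591 in limma. Vtn, encoding the matrix ligand vitronectin, and Lrp1, the endocytic receptor that clears activator and inhibitor complexes, had log2 differences of 0.00 and 0.06.

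Of the substrates, Mmp3, a metalloproteinase that plasmin activates, had 2.90, 3.72 and 4.12 FPKM under IgG and 12.1, 5.15 and 6.83 FPKM under anti-PD-1. Its log2 difference was 0.92 (standard error 0.29, adjusted p = 0.355 from limma), without overlap. Pdgfc, a growth factor that plasmin and Plat release from its latent form, was lower without overlap, at 9.77 to 11.5 FPKM in IgG and 7.09 to 9.51 FPKM in anti-PD-1 tumors (log2 difference -0.30, standard error 0.16, adjusted p = 0.482 from limma). Mmp9 did not reach the filter but was 0.223 ± 0.0602 (SD, n = 3) FPKM in IgG and 0.581 ± 0.115 (SD, n = 3) FPKM in anti-PD-1 tumors, without overlap (exact permutation test, p = 0.1). The fibrinogen gene Fgg had 10.9, 2.09 and 0.352 FPKM under IgG and 20.01, 9.28 and 6.62 FPKM under anti-PD-1, overlapping through IgG replicate 1 (log2 difference 1.69, standard error 0.76, adjusted p = 0.426 from limma). Fga and Fgb, the other fibrinogen chains, were at most 0.252 FPKM, and Fgb was lower in every anti-PD-1 tumor at this level. All 6 plasminogen-binding genes and all 5 coagulation genes were tested, and none had an unadjusted p under 0.05 in limma.

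**Figure D4:**
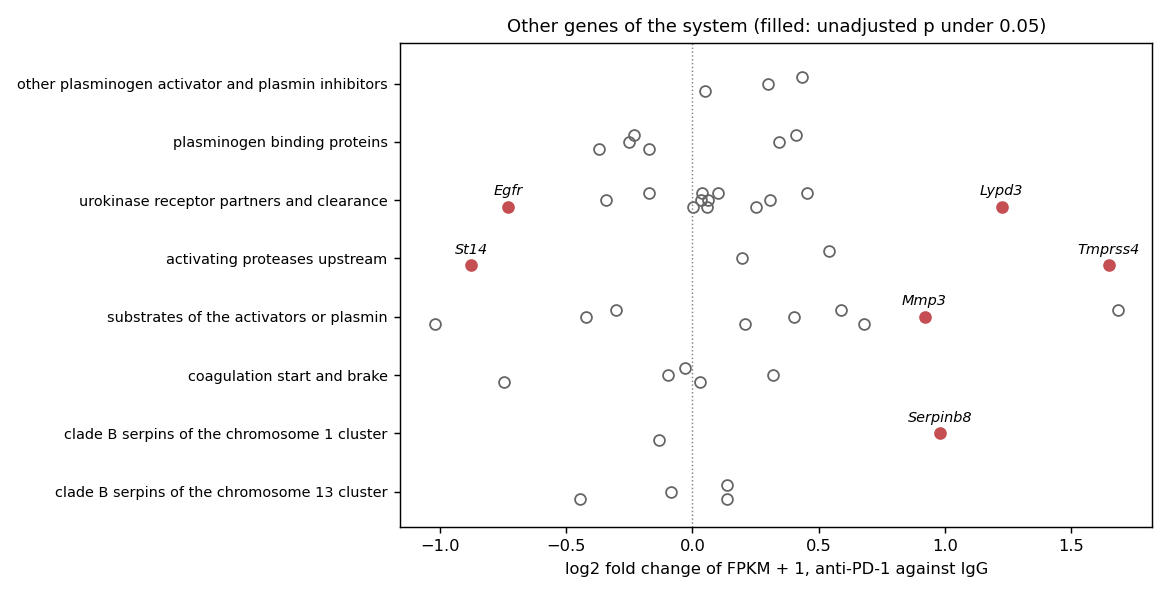
Log2 difference between anti-PD-1 and IgG tumors (x axis) for 40 tested genes of the list and 6 tested clade B serpins of chromosomes 1 and 13, by group (y axis), filled where the unadjusted p from limma was under 0.05. Named are the 6 filled genes, from St14 at -0.88 to Tmprss4 at 1.65.

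Along chromosome 1, Serpinb5 and Serpinb2 lie in a cluster of clade B serpins. Of the 10 other genes listed there, 7 were at 0 in every tumor and 2 were tested. Serpinb8, an inhibitor of furin-like proteases, had 1.64, 1.05 and 0.701 FPKM under IgG and 2.70, 2.86 and 3.94 FPKM under anti-PD-1. All its anti-PD-1 values were above all IgG values (log2 difference 0.98, standard error 0.23, unadjusted p = 0.00346, adjusted p = 0.344 from limma). Serpinb5, in the same cluster, had the opposite sign, and the ratio of Serpinb5 to Serpinb8 was 14.5, 60.4 and 24.99 under IgG and 5.86, 4.36 and 4.02 under anti-PD-1. These ratios did not overlap (exact permutation test, p = 0.1, adjusted p = 0.5 over 5 ratios), and the pair was picked after its values were seen. Since Serpinb5 was lower and Serpinb8 higher, each without overlap, this separation and its exact p were fixed beforehand. They add nothing to the values of each gene. Serpinb11 had 0.660 to 6.07 FPKM with overlapping groups and a log2 difference of -0.13.

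Around Plaur on chromosome 7, 25 genes within 500 kb of its start were tested, a window chosen after values were seen. Of these, 6 had an unadjusted p under 0.05 in limma in the higher direction and 1 in the lower, against 6.22% and 6.05% of all tested genes, with a median log2 difference of 0.23. Around the other 7 members the same window held 2 to 22 tested genes, with medians from -0.26 around Serpinb5 to 0.60 around Plg. Higher genes with such a p numbered 2 of 5 around Serpine2 and 1 of 2 around Serpinb2. They numbered 1 of 10 around Plg, 1 of 22 around Plau and 0 around Plat, Serpinb5 and Serpinb6b. Lower ones numbered 2 of 18 around Plat, 1 of 3 around Serpinb5 and 0 around the rest. The 6 higher genes around Plaur were Pinlyp, Lypd3, Cd177, Ceacam10, Gm9844 and Arhgef1, all past the end of Plaur. Zfp61, the lower gene around Plaur, lay before it. Pinlyp, Lypd3 and Cd177 encode proteins with LY6/uPAR domains, as Plaur does. Cd177, a neutrophil surface protein, had 36.7, 8.13 and 8.44 FPKM under IgG and 108, 67.1 and 73.2 FPKM under anti-PD-1 (log2 difference 2.47, standard error 0.54, adjusted p = 0.344 from limma). Among the IgG tumors, replicate 1 was again the highest. The 10 neutrophil markers summed to 2.97 to 12.8 FPKM in IgG and 6.29 to 26.0 FPKM in anti-PD-1 tumors. Their part in the Cd177 values was not tested. Pinlyp had 0.755, 0.395 and 0.972 FPKM under IgG and 0.834, 5.77 and 8.69 FPKM under anti-PD-1, overlapping in anti-PD-1 replicate 1, where Plaur was highest. Cadm4, the nearest tested gene, had a log2 difference of 0.33 (standard error 0.23). Lypd3 is overlapped by the antisense gene Gm26550, and reads of the pair could not be told apart without strand.

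**Figure D5:**
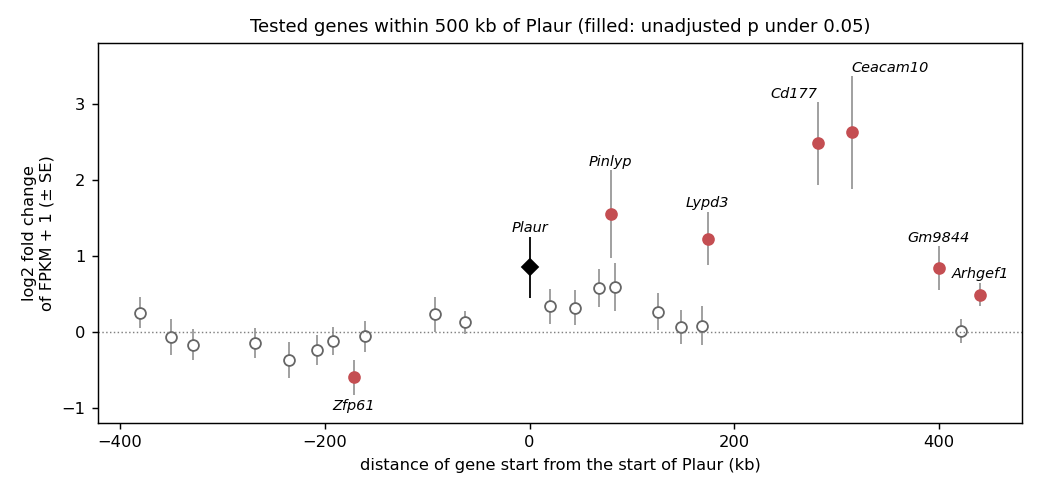
Log2 difference between anti-PD-1 and IgG tumors (y axis, ± standard error) of tested genes against the distance of their start from that of Plaur in kb (x axis), with Plaur as a diamond at 0.85 and genes with an unadjusted p under 0.05 filled. The filled higher genes, up to Ceacam10 at 2.62, all lie to the right of Plaur.

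The genes most like each member over the 6 tumors were sought among 1231 genes with a mean of at least 5 FPKM and an SD of at least 0.5 on the log2 scale. For Plaur they were Bmp1, Gm9844 and Rem2 (Pearson r from 0.96 to 0.98), and for Serpine2 they included Pqlc1 and Adssl1 (0.97 to 0.98). For Serpinb6b they were Cd1d1, A4galt and Rnf11 (0.99 each), and for Serpinb5 Ptn, Lurap1l and Timd2 (0.96 to 0.98). Acy3, Rpl19-ps11 and Ccng1 came first for Plau (0.96 to 0.98) and Col6a3, Lmod1 and Tspan6 for Plat (0.95 to 0.96). An r of at least 0.9 was reached by 117 genes for Serpinb6b and by 10 for Plat, and by 11 to 46 genes for the other 4 members, and no p is given.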

How the data were processed

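RNAseq of tumors was compared for 3 IgG and 3 anti-PD-1 samples, grouped by sample label, with each taken as 1 tumor. The authors deposited FPKM values per Ensembl gene ID. Per the submitters' processing notes and the paper's methods, reads were checked with FastQC 0.11.9, trimmed with cutadapt 3.5 and counted with RSEM 1.3.1 on a Bowtie2 2.4.1 index of mm10. DESeq2 1.36.0 was the authors' test. How the FPKM was made is not given in the sources used here.

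Of 54532 IDs, 54495 matched GENCODE release M21 (GRCm38). FPKM times merged exon length gave whole reads, within 0.1, for 97.0% to 97.3% of detected values. FPKM was divided by median-of-ratios factors (1.00 to 1.01), 1 was added and log2 taken. Genes averaging 0.5 FPKM or more were tested with limma 3.58.1 (eBayes with trend) in R 4.3.3, since FPKM are not the counts that the study's test takes. Exact permutation tests covered single values. Python 3.11.15 with pandas 2.3.3 and matplotlib 3.10.9 was used for tables and figures. The script was tested on simulated data.

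The alternatives were 0.1 in place of 1, no filter, a higher filter at 2 FPKM, the deposited FPKM without factors, quantile normalization, no trend, the replicate number as a block, voom on recovered reads, and leaving out each tumor. All 8 members were named, then Serpinf2, then list genes with an unadjusted p under 0.05 or groups without overlap, and the 3 genes most like each tested member. Further genes are named as parts of a list. Some genes that this rule names are not reported here. The members and lists were chosen with earlier results of these data known. The 5 ratios between genes and the 500 kb window were chosen after the values were seen. Marker lists of hepatocytes, adipocytes, squamous epithelium and other cells were summed per tumor.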

Additional observations from a re-analysis of the deposited data

How the results depend on the processing

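No member had an adjusted p under 0.05 in limma under any of the 14 alternatives. The number of members with an unadjusted p under 0.05 was 1 of 6, and it was 0 of 4 with a mean FPKM of at least 2 (which drops Serpinb6b and Plat), 2 with the replicate block (Plaur added), 2 with voom (Serpinb5 added) and 1 to 3 with each tumor left out. For the 40 tested list genes and the 6 tested clade B serpins together it was 6 of 46, 9 of 46 with the replicate block, and 5 to 11 with each tumor left out. Over all tested genes it was 1848 and with each tumor left out it ran from 961 (IgG replicate 2) to 2679 (IgG replicate 1). Genes with an adjusted p under 0.05 numbered 0, 1 with voom, and 0 to 12 with each tumor left out, most without IgG replicate 1. Plat, at 0.00, turned below 0 with FPKM as deposited (-0.0013) and in 4 of the fits without 1 tumor, over a range of -0.17 to 0.24. The other 5 tested members kept their direction throughout. Over all tested genes, deviations of same-numbered tumors correlated at -0.16, 0.01 and 0.19, and not every tumor correlated best with its own number. With 3 tumors per group this cannot exclude a pairing by replicate number. In Plaur the replicate block lowered the standard error from 0.40 to 0.19 (limma, unadjusted p = 0.00505, adjusted p = 0.395). Plg and Serpinb2, with at most 10 and 34 reads per tumor, entered the fit without a filter alone, where their log2(FPKM + 1) differences were 0.01 (adjusted p = 0.953 from limma) and 0.25 (adjusted p = 0.715), sizes that depend on the 1 added.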

Other observations

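Among 13 keratinizing squamous markers, 5 were at 0 in every tumor and 3 were tested, of which Krt10 and Sprr1a had log2 differences of -0.03 and -0.18 with overlapping groups. Dsg3, a desmosomal cadherin of stratified epithelium, was 0.309 to 1.96 FPKM in IgG and 2.62 to 4.76 FPKM in anti-PD-1 tumors, without overlap (log2 difference 1.43, standard error 0.36, adjusted p = 0.344 from limma). The 7 adipocyte markers summed to 4.90 to 6.32 FPKM in IgG and 2.12 to 7.25 FPKM in anti-PD-1 tumors, and Fabp4, the single tested marker, had a log2 difference of -0.32 with overlapping groups.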
